A study of Mus musculus with 12 samples.

Results

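The genes described here encode voltage-gated sodium channels (Scn), voltage-gated calcium channels (Cacn) and the TRPC, TRPM and TRPV branches of the transient receptor potential (TRP) channels, measured by RNA sequencing of mouse prostate. Members were chosen by gene symbol, as the Scn alpha and beta subunits, the Cacna, Cacnb and Cacng subunits and the numbered Trpc, Trpm and Trpv genes, with a raw count of 10 or more in at least 2 libraries of either of 2 count tables. By this rule there were 51 members among 58 genes of matching name and 28075 genes in either table. The 51 genes were all in the F1 table and 50 were in the F3 table, Trpm8 being the exception. They comprised 9 Scn alpha, 4 Scn beta, 10 Cacna1, 3 Cacna2d, 4 Cacnb, 5 Cacng, 5 Trpc, 7 Trpm and 4 Trpv genes. The 7 matching genes that did not meet the rule were Trpm5, Trpc5, Cacng1, Scn11a, Trpv5, Cacna2d4 and Trpv3. Just outside the rule, Scn11a had counts of 24 and 9 in its 2 highest F1 libraries and Trpv3 had 11 and 9. Just inside it, Cacng5 had 40 and 11 in its 2 highest F1 libraries and Scn10a had 20 and 13.

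Chlordecone (kepone) is an organochlorine insecticide with oestrogenic activity. Pregnant F0 females received 100 µg/kg/day from E6.5 to E15.5, and prostates of their male offspring (F1) and of males of the third generation (F3) were profiled as poly(A) RNA, each beside controls of the same generation. The F1 animals were thus exposed in utero, whereas the treatment given for the F3 line was that of the F0 ancestor. The labels listed 3 samples in each of 4 groups, of which 11 of 12 samples were analysed here: 2 F1 control, 3 F1 chlordecone, 3 F3 control and 3 F3 chlordecone libraries. F1 control 3 was not analysed here. Strain, age, vehicle, dissected lobe and whether each library came from 1 animal are not known from the labels, and the p-values therefore measure the spread between these libraries.

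Voltage-gated sodium and calcium channels are built around a large pore-forming subunit (the Scn alpha and Cacna1 genes), which opens when the membrane is depolarised, and smaller subunits (Scn beta, Cacna2d, Cacnb, Cacng) that set its trafficking and gating. Sodium channels carry the rising phase of action potentials in nerve and striated muscle, and L-type calcium channels couple depolarisation to contraction in smooth muscle. TRP channels are cation channels gated by lipids, temperature, osmotic stretch or intracellular calcium. In epithelia, TRPV6 takes up calcium across the apical membrane, and TRPM7 carries magnesium, calcium and zinc and bears a kinase domain.

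Total counts were 17228539 to 28061760 per library in F1 and 71672418 to 114762135 in F3. Between 4898 and 6788 counts per F1 library, and between 13199 and 28671 per F3 library, fell on the members. In F1, 32 members had 10 or more counts in every library, and 28 did in F3. The F1 libraries held much seminal vesicle RNA: the summed level of 7 seminal vesicle secretory markers was 118447 and 121062 CPM (counts per 1000000 counts of normalised library size) in the controls and 187024 to 528811 CPM with chlordecone, against 9.91 to 70.2 CPM in F3. The 6 luminal prostate markers summed to 40435 to 95150 CPM in F1 and 87587 to 105480 CPM in F3, so the labelled tissue was present in every library. F1 chlordecone 1 and 3 also carried 46760 and 14965 CPM of 6 vas deferens and epididymis markers, where F1 chlordecone 2 had 198 CPM and the 2 controls 182 and 189 CPM. The markers of this list differed. From control to chlordecone mean, Akr1b7 went from 15.0 to 12613 CPM, Crisp1 from 9.39 to 6827 CPM and Spink8 from 160 to 1198 CPM. Defb2 (0.172 to 2.61 CPM), Adam7 (0.131 to 0.706 CPM) and Lcn5 (0.314 to 0.453 CPM) stayed low. Of 14 marker lists, the summed levels of the F1 groups did not overlap for 10, and 9 of these were higher with chlordecone. These included 7 smooth muscle markers (3964 and 4036 CPM in controls, 4636 to 11748 CPM with chlordecone) and 8 neuronal markers (9.84 and 12.8 CPM against 25.9 to 95.7 CPM). Taken singly rather than as sums, 31.3% of all F1 genes tested did not overlap between groups. The edgeR test described below called 0 of the listed markers in F1. In F3 the sums did not overlap for 2 lists, basal epithelium (137 to 163 CPM in controls, 168 to 238 CPM with chlordecone) and urothelium (114 to 158 CPM against 187 to 223 CPM). Of single F3 genes tested, 16.6% did not overlap, and the same test called 1 listed marker. In whole tissue, fewer cells of a type and less RNA per cell cannot be told apart.

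In F1 prostate, 1 sodium channel gene fell with chlordecone and no other member passed the test. Scn3a, the pore subunit of Nav1.3, was 6.67-fold lower in the chlordecone libraries. Trpc6 (9.72-fold lower), Trpm3 (3.94-fold lower) and Trpv6 (17.6-fold higher) also stood apart between the groups but did not pass the test. The test was edgeR's quasi-likelihood F test, with Benjamini-Hochberg adjustment over all genes tested and a threshold of 0.05. Of 47 members tested in F1, 1 was called (all genes: 5 of 17804, or 0.0281%). At an unadjusted p under 0.05, 3 members were higher and 3 lower, or 12.8% of those tested against 11.5% of all genes (7.93% higher and 3.60% lower). The control and chlordecone ranges did not overlap for 18 of 47 members (38.3%), of which 7 were higher and 11 lower, where the share over all genes was 31.3% (16.2% higher and 15.1% lower). The log2 fold change was above 0 for 22 members and below 0 for 25, with a median of -0.01; over all genes tested 51.4% were above 0 and the median was 0.02. Set against the control mean, the members' median log2 ratio was -0.38 in F1 chlordecone 1, 0.53 in chlordecone 2 and -0.23 in chlordecone 3. The direction of the set as a whole thus differed between libraries of the same group.

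**Figure D1:**
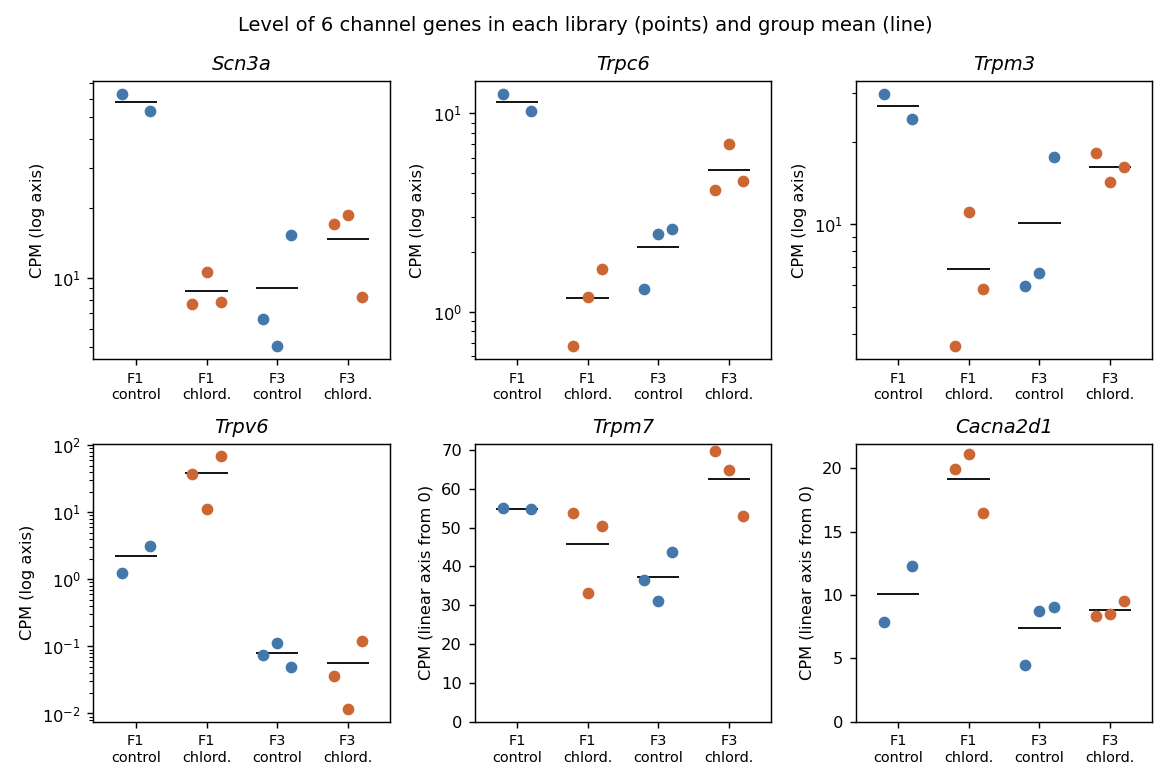
Level in CPM of 6 members in each library (points, blue for control and orange for chlordecone) with the group mean (line); the axis is logarithmic for Scn3a, Trpc6, Trpm3 and Trpv6 and linear from 0 for Trpm7 and Cacna2d1. In F1 both controls lie above every chlordecone library for Scn3a, Trpc6, Trpm3 and, by a narrow margin, Trpm7, and below for Trpv6 and Cacna2d1. In F3 the groups are apart for Trpc6 and Trpm7.

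Scn3a lies on chromosome 2 at 65457118 to 65567627 on the minus strand (GRCm38), in a row of sodium channel genes with Scn2a (65620771 to 65767447), Scn1a (66270778 to 66440840), Scn9a (66480080 to 66634962) and Scn7a (66673425 to 66784914). It is known chiefly from embryonic neurons and endocrine cells. Its level was 63.2 and 53.0 CPM in the F1 controls and 7.68, 10.6 and 7.87 CPM in the chlordecone libraries. Every chlordecone library was thus well under both controls, and the 3 chlordecone libraries were close to each other. The means were 58.1 ± 7.24 CPM (SD, n = 2) and 8.71 ± 1.62 CPM (SD, n = 3), a log2 fold change of -2.74 (SE 0.27; edgeR adjusted p = 0.0284). Leaving out 1 library kept the direction and lost the call in 4 of 5 cases: the adjusted p was 0.711 without control 1, 0.421 without control 2, 0.0558 without chlordecone 1 and 0.188 without chlordecone 3, and 0.000689 without chlordecone 2. Scn3a alone made up 18.9% of the members' summed level in F1 controls and 3.19% with chlordecone. The summed level of the neuronal markers was higher in every chlordecone library, and its relation to the Scn3a level was not tested.

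None of the other alpha subunits passed the test in F1. Scn2a, a main neuronal sodium channel, was 2.99 and 2.76 CPM in F1 controls and 3.05, 5.02 and 4.23 CPM with chlordecone. Scn7a, a sodium-sensing channel of glia and other non-neuronal cells, was 2.99 and 3.42 CPM in controls and 9.11, 3.22 and 6.63 CPM with chlordecone, and these ranges overlap. Scn1a was 2.46 and 2.06 CPM against 1.94, 2.34 and 1.47 CPM. Of the 8 alpha subunits tested, 5 had a log2 fold change above 0 and 3 below.

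The Scn beta subunits are single-pass membrane proteins that also act in cell adhesion, and none passed the test in F1. Scn2b was 2.57 and 4.73 CPM in controls and 1.31, 3.16 and 1.57 CPM with chlordecone, with overlapping ranges. Scn4b had no counts in either F1 control and 10 to 25 counts per chlordecone library (0.753 CPM on average), which is at least 5.06-fold higher than the mean level that 3 counts per control library would give (0.149 CPM). This floor covers counting error only, and Scn4b did not pass the low-count filter of the F1 test.

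No voltage-gated calcium channel gene passed the test in F1. Of the 9 pore-forming Cacna1 genes tested, 7 had a log2 fold change below 0 and 2 above. Cacna1h, a T-type (low-voltage) channel, was 11.7 and 10.8 CPM in F1 controls and 6.57, 7.58 and 3.13 CPM with chlordecone, with a log2 fold change of -0.97 (SE 0.45; edgeR adjusted p = 0.46). Cacna1a, the P/Q-type channel of nerve endings, was 13.0 and 7.87 CPM against 6.34, 16.1 and 6.90 CPM. Cacna1c, the L-type channel of smooth and cardiac muscle, was 12.3 and 7.45 CPM against 9.90, 11.4 and 8.19 CPM. The chlordecone ranges of Cacna1a and Cacna1c thus overlapped their controls. Smooth muscle marker RNA was higher in the same libraries, and its part in these levels was not tested.

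Cacna2d1, the alpha2-delta subunit that brings calcium channels to the cell surface and binds gabapentin, had the smallest edgeR p-value of the auxiliary subunits in F1. It was 7.86 and 12.3 CPM in controls and 20.0, 21.1 and 16.5 CPM with chlordecone. The groups did not overlap, and the log2 fold change was 0.92 (SE 0.32; edgeR adjusted p = 0.335). Cacna2d2 was 2.15 and 1.92 CPM in controls and 0.95, 1.85 and 1.66 CPM with chlordecone. The beta subunits, which bind inside the cell and promote channel delivery, were close between groups for Cacnb3 (10.3 and 8.62 CPM in controls, 9.15, 9.27 and 9.90 CPM with chlordecone) and scattered for Cacnb1 (4.77 and 4.64 CPM against 3.37, 8.51 and 2.26 CPM). The Cacng genes, several of which also regulate glutamate receptors, overlapped between F1 groups in all 5 cases. Cacng4 was 2.15 and 2.20 CPM against 1.50, 4.58 and 1.24 CPM, and Cacng8 was 3.88 and 2.91 CPM against 0.238, 5.23 and 1.10 CPM. In both, F1 chlordecone 2 was the highest library.

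The TRP members with the smallest F1 p-values were Trpc6, Trpv6 and Trpm3, and the 250 bases before their starts are printed for that reason. Sequences are from RefSeq (GRCm38.p6), 5′ to 3′ on the gene's strand, in lower case, with capitals marking the half-sites of hormone response elements. The letters searched on both strands were GGTCA (oestrogen receptor half-site), AGAACA (androgen receptor half-site) and the full elements GGTCANNNTGACC and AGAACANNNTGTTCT. Trpc6 is at chr9:8543892-8544141 (plus strand), the first Trpm3 start at chr19:22138796-22139045 (plus), the second at chr19:22447958-22448207 (plus) and Trpv6 at chr6:41636406-41636655 (minus).
Trpc6: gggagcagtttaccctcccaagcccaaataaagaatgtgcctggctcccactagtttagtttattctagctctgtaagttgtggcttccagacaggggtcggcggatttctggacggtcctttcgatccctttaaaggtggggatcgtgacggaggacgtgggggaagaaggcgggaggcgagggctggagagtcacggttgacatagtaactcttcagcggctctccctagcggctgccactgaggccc
Trpm3 start 1: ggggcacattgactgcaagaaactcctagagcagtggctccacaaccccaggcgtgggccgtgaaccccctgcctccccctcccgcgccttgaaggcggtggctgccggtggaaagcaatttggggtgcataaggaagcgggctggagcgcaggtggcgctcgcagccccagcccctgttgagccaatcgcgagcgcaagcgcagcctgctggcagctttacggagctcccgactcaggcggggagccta
Trpm3 start 2: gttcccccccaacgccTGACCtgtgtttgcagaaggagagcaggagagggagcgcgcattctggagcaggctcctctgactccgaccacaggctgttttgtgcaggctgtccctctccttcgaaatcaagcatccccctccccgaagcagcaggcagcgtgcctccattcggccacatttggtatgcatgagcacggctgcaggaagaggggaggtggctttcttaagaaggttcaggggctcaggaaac
Trpv6: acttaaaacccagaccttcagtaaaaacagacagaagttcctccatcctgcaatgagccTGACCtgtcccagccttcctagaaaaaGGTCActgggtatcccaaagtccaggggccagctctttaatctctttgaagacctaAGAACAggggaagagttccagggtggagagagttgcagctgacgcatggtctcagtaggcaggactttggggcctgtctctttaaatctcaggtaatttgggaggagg
The Trpv6 window held 2 oestrogen half-sites and 1 androgen half-site, the second Trpm3 window held 1 oestrogen half-site, and the Trpc6 and first Trpm3 windows held neither. Such short matches are common: GGTCA was in 35.2% and AGAACA in 16.1% of 32851 RefSeq windows of the same length. The full oestrogen element was in 0.0639% of windows and the full androgen element in 0.00913%, and neither was in any of the 56 windows of the 41 members found in the table. A match is a description of letters and not of a bound site. The Trpc6 and first Trpm3 windows had 12 and 17 CpG dinucleotides and the Trpv6 window had 1.

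Trpc6, a diacylglycerol-gated calcium entry channel of smooth muscle and kidney podocytes, lies on chromosome 9 at 8544142 to 8680741. It was 12.6 and 10.3 CPM in F1 controls and 0.673, 1.20 and 1.66 CPM with chlordecone. All 3 chlordecone libraries were far under both controls (means 11.4 ± 1.6 CPM, SD, n = 2, and 1.18 ± 0.492 CPM, SD, n = 3). The log2 fold change was -3.28 (SE 0.53; edgeR adjusted p = 0.127). The summed level of the 7 smooth muscle markers was higher in all 3 chlordecone libraries, and its relation to the Trpc6 level was not tested. Trpc1, a subunit of mixed TRPC channels, was 6.03 and 4.59 CPM in controls and 3.25, 7.80 and 2.03 CPM with chlordecone.

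Trpm3, a heat- and steroid-gated channel of sensory neurons and some epithelia, lies on chromosome 19 at 22139046 to 22995410. It was 29.9 and 24.2 CPM in F1 controls and 3.60, 11.1 and 5.85 CPM with chlordecone, so the groups were apart, with chlordecone 2 the nearest to the controls. The log2 fold change was -1.98 (SE 0.46; edgeR adjusted p = 0.201). Gm27151 and C330002G04Rik, transcripts of the other strand, overlap 1.13% and 1.44% of its exon length; reads there cannot be assigned to a gene without the counting strand. Trpm7 was 55.1 and 54.7 CPM in controls and 53.8, 33.2 and 50.4 CPM with chlordecone, a log2 fold change of -0.26 (SE 0.28; edgeR adjusted p = 0.784). Chlordecone 1 and 3 were close to the controls and chlordecone 2 was lower.

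Trpv6 lies on chromosome 6 at 41620624 to 41636405 on the minus strand. It was 1.26 and 3.19 CPM in F1 controls and 37.3, 11.4 and 68.6 CPM with chlordecone. Every chlordecone library was above both controls, and the chlordecone libraries differed among themselves by several fold (2.22 ± 1.36 CPM, SD, n = 2, and 39.1 ± 28.6 CPM, SD, n = 3). The log2 fold change was 4.13 (SE 0.82; edgeR adjusted p = 0.17). The 2 highest libraries, chlordecone 1 and 3, were also those with vas deferens and epididymis marker RNA, whose levels are given above. Chlordecone 2, with marker RNA of that list near the control level, was at 11.4 CPM, above both controls. That library had 430207 CPM of seminal vesicle markers, against 118447 and 121062 CPM in the controls. Its luminal prostate sum was the lowest in F1 (40435 CPM). A single library gives no replicate check, and the part of these tissues in the Trpv6 level was not tested. Trpv4, an osmotic and warmth sensor of epithelia, was 2.20 and 1.03 CPM in controls and 5.94, 5.62 and 2.76 CPM with chlordecone (log2 fold change 1.56, SE 0.67; edgeR adjusted p = 0.431). Trpv1, a capsaicin- and heat-gated channel of sensory neurons, was at 1.57 and 0.937 CPM in controls and 0.436, 0 and 0 CPM with chlordecone, a wide but imprecise difference at few counts (log2 fold change -3.01, SE 1.83; edgeR adjusted p = 0.592). Trpv2 overlapped between groups, at 2.04 and 3.14 CPM against 7.40, 1.15 and 7.83 CPM, and followed the same libraries as the vas deferens markers; their part was not tested.

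The F1 calls depended strongly on which library was left out. Without F1 chlordecone 1 edgeR called 0 members and 7 of all genes, and without F1 chlordecone 3 it called 0 of both. Without F1 chlordecone 2, edgeR called 4 members: Scn3a, Trpc6 (adjusted p = 0.0086), Trpm3 (0.00443) and Trpv6 (0.00281). All genes called were then 2604 of 17394 (15.0%). F1 chlordecone 2 was the library with the highest share of a single gene, 29.8% of counts on the seminal vesicle gene Svs4. By the sum of the 7 seminal vesicle markers it was not the highest (430207 CPM, against 528811 CPM in chlordecone 3). Its vas deferens and epididymis marker sum was 198 CPM, against 46760 CPM in chlordecone 1 and 14965 CPM in chlordecone 3. The part of these differences in the calls was not tested. With all 5 libraries, DESeq2's Wald test called the same 4 members and 719 of all 17804 genes (4.04%).

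**Figure D2:**
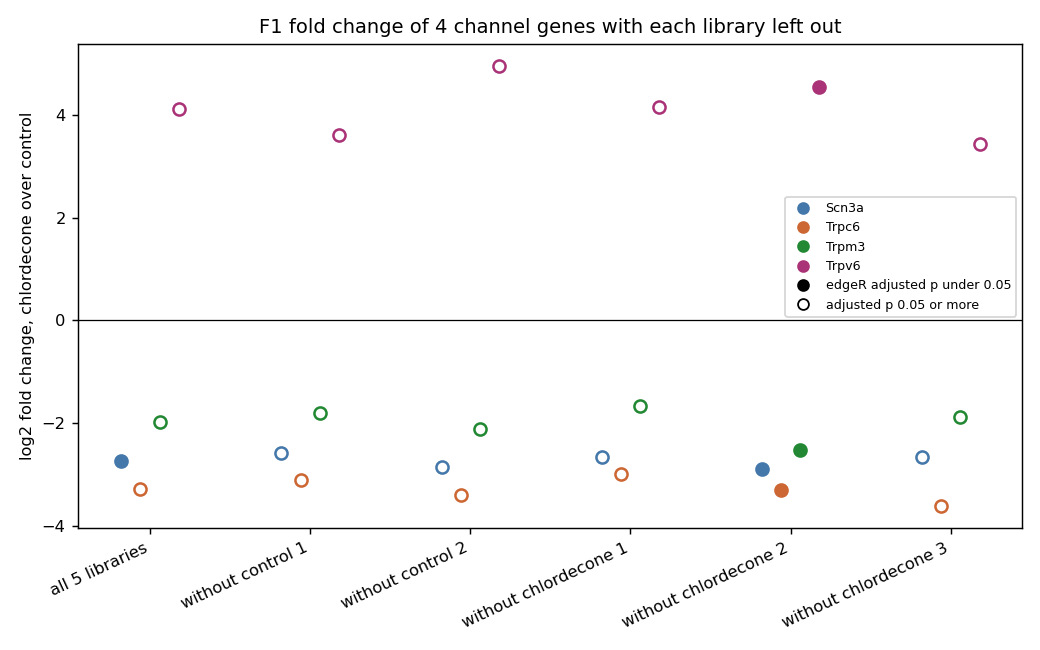
F1 log2 fold change (chlordecone over control, vertical axis) of Scn3a, Trpc6, Trpm3 and Trpv6 with all 5 libraries and with each library left out in turn (horizontal axis); filled circles mark an edgeR adjusted p under 0.05. No point changes sign, while all 4 genes are filled only without chlordecone 2, and Scn3a also with all 5 libraries.

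In F3 prostate no member passed the test. The members with the smallest p-values were higher Trpm7 (1.68-fold), higher Trpc6 (2.45-fold) and higher Cacng7, the last at under 1 CPM. Of 35 members tested, edgeR called 0 (all genes: 10 of 16766, or 0.0596%), and 3 were higher and 0 lower at an unadjusted p under 0.05. That is 8.57% of the members, beside 10.6% of all genes (4.97% higher and 5.64% lower). The groups did not overlap for 6 members (17.1%), 5 higher and 1 lower, beside 16.6% of all genes (8.34% higher and 8.25% lower). The log2 fold change was above 0 for 24 members and below 0 for 11, with a median of 0.11, where 48.8% of all genes were above 0 and their median was -0.01. The members' median log2 ratio to the control mean was 0.02, 0.15 and 0.09 in the 3 chlordecone libraries. DESeq2's Wald test called 2 members, Trpc6 (adjusted p = 0.00885) and Trpm7 (adjusted p = 0.0108), and 249 of all genes (1.49%).

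Trpm7 was 36.5, 31.2 and 43.9 CPM in F3 controls and 69.7, 64.8 and 53.1 CPM with chlordecone. All 3 chlordecone libraries were above all 3 controls (37.2 ± 6.37 and 62.5 ± 8.55 CPM, SD, n = 3 each). The log2 fold change was 0.75 (SE 0.16; edgeR adjusted p = 0.309). Trpc6 was 1.31, 2.46 and 2.61 CPM in controls and 4.10, 6.98 and 4.58 CPM with chlordecone, again with no overlap (log2 fold change 1.29, SE 0.32; edgeR adjusted p = 0.345). Cacng7 was 0.169, 0.156 and 0.0581 CPM in controls and 0.440, 0.50 and 0.415 CPM with chlordecone, which are 7 to 16 counts per control library and 43 to 49 per chlordecone library. Its log2 fold change was 1.84 (SE 0.46; edgeR adjusted p = 0.345). Basal and urothelial marker sums were higher in the F3 chlordecone libraries, as given above, and their part in these differences was not tested.

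Scn3a did not separate the groups in F3. It was 6.63, 5.02 and 15.4 CPM in controls and 17.1, 18.8 and 8.22 CPM with chlordecone, so 1 control and 1 chlordecone library crossed over (log2 fold change 0.70, SE 0.44; edgeR adjusted p = 0.569). Trpm3 was 5.99, 6.66 and 17.6 CPM in controls and 18.2, 14.2 and 16.1 CPM with chlordecone, where control 3 lay among the chlordecone libraries (0.68, SE 0.38; edgeR adjusted p = 0.54). Control 3 was the high control for both genes. Trpv6 was at 0.0116 to 0.123 CPM in all 6 F3 libraries and did not pass the low-count filter. Cacna2d1 was 4.50, 8.70 and 9.08 CPM in controls and 8.35, 8.52 and 9.49 CPM with chlordecone, with overlap.

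Other members were close between F3 groups. Cacnb3 was 73.2, 63.9 and 58.1 CPM in controls and 72.6, 74.3 and 57.5 CPM with chlordecone. Trpm4, a calcium-activated sodium-permeable channel, was 28.0, 30.7 and 25.9 CPM against 32.1, 31.3 and 25.7 CPM. Cacnb1 was 4.94, 4.24 and 4.12 CPM against 4.70, 3.81 and 4.18 CPM. All 3 overlapped between groups. Trpv4 was 2.21, 2.96 and 2.98 CPM against 2.44, 1.98 and 2.78 CPM, and Trpv2 was 1.62, 3.08 and 2.57 CPM against 1.30, 1.82 and 2.27 CPM. Cacnb2, which did separate, was 6.07, 6.07 and 7.52 CPM against 8.16, 8.81 and 7.88 CPM (log2 fold change 0.34, SE 0.17; edgeR adjusted p = 0.501).

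Further F3 members were at under 5 CPM in every library. Scn7a was 0.984, 2.69 and 1.75 CPM in controls and 1.47, 2.13 and 1.88 CPM with chlordecone, and Scn3b was 0.550, 2.32 and 1.66 CPM against 1.16, 1.12 and 1.48 CPM. Cacna1c was 1.86, 3.31 and 4.56 CPM against 2.95, 4.02 and 3.57 CPM, and Cacna1h was 0.793, 2.14 and 2.43 CPM against 1.91, 2.39 and 1.57 CPM. Cacna2d2 was 0.201, 0.226 and 0.191 CPM against 0.215, 0.290 and 0.189 CPM, and Cacng4 stayed at 0.0377 to 0.125 CPM. None of these 6 separated the groups. Cacna1s, Cacng5 and Cacng8 had no counts in the F3 controls, and Scn10a had none in the F3 chlordecone libraries; the other group of each was at or under 4 counts per library.

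**Figure D3:**
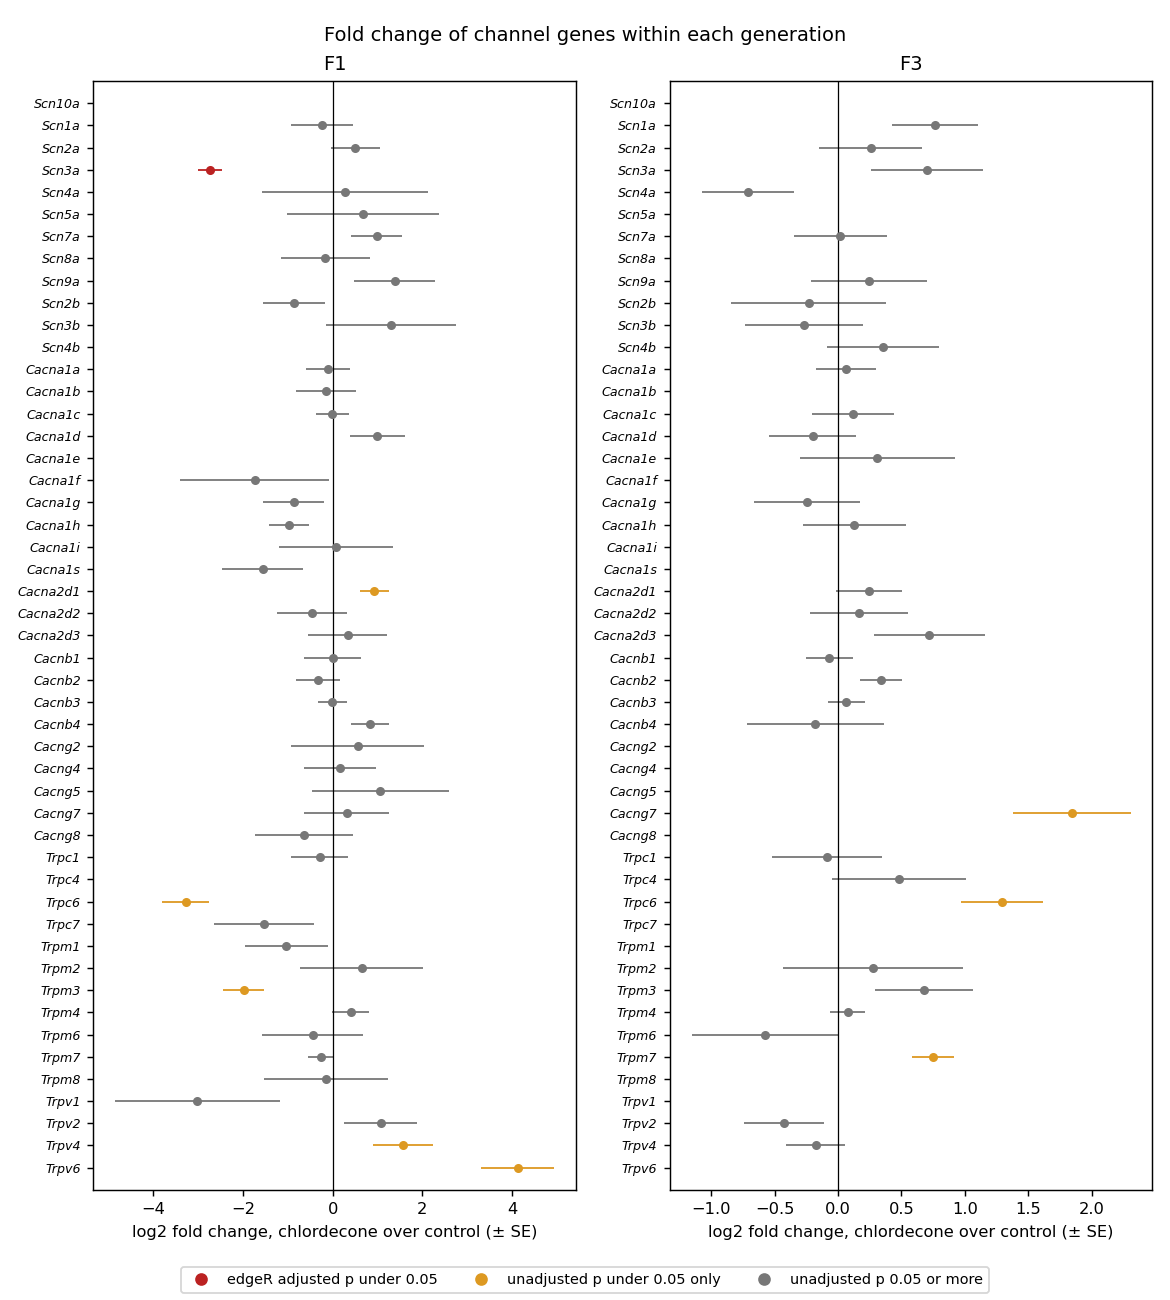
Log2 fold change (chlordecone over control, horizontal axis, with SE bars) of the members reported here, where tested, in F1 (left) and F3 (right), by gene (vertical axis); the axes have different ranges, and a gene with no point was not tested there. Scn3a is the 1 member coloured for an adjusted p under 0.05, in F1.

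The fold change itself differed between generations for 2 members. This was tested as an interaction, the F3 log2 fold change minus that of F1, over the 16980 tested genes present in both tables. For Trpc6 the difference was 4.65 (SE 0.60, edgeR adjusted p = 0.00455), and for Scn3a it was 3.52 (SE 0.58, edgeR adjusted p = 0.0196). In the separate fits of each generation, Trpc6 was at -3.28 in F1 and 1.29 in F3, and Scn3a at -2.74 and 0.70. The tested difference comes from the joint fit of both generations, so it is not exactly the gap between these values. Both genes were thus lower with chlordecone in F1 and on the other side of 0 in F3. The test called 2 of 50 members, beside 122 of all genes (0.718%), and 9 members (18.0%) had an unadjusted p under 0.05, beside 16.9% of all genes. Next in order were Trpm3 (2.73, SE 0.64; edgeR adjusted p = 0.0636), Trpv6 (-4.41, SE 1.16; 0.0859) and Trpm7 (1.09, SE 0.30; 0.1), which missed the threshold. With DESeq2's Wald test 6 members were called (Scn3a, Scn4b, Trpc6, Trpm3, Trpm7 and Trpv6), beside 6.78% of all genes.

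The Trpc6 difference passed the threshold in all 11 fits that left out 1 library (edgeR adjusted p from 0.00133 to 0.0296). That of Scn3a passed in 7 of 11; the adjusted p was 0.0728 without F1 control 1, 0.0641 without F1 control 2, 0.0674 without F3 chlordecone 1 and 0.0571 without F3 chlordecone 2. The F1 and F3 libraries differ in marker RNA and depth as given above, so generation cannot be told apart from how the 2 sets of libraries were dissected and sequenced.

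Levels in the 2 tables are given side by side as a description, because the tables were normalised separately and the rule itself bears on them. Of the 50 shared members, 36 met the count rule in both tables, 13 in F1 only and 1, Cacna1e, in F3 only. The lower F3 levels of many members are therefore partly fixed by how members were chosen, and the same count is also a higher CPM at the lower depth of F1.

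Divided by exon length, the leading members in the F1 controls were Trpm7 at 4.85 CPM per kb, Scn3a at 4.66, Cacnb3 at 2.36 and Trpc6 at 2.26 CPM per kb. In F3 controls they were Cacnb3 at 16.2, Trpm7 at 3.29 and Trpm4 at 2.61 CPM per kb. In CPM not divided by exon length, Cacnb3, an intracellular calcium channel subunit, took 33.5% of the members' summed level in F3 controls. Scn3a was second of the members per kb in F1 controls and rank 15 with chlordecone, and Trpc6 went from rank 4 to rank 29. The 2 first F1 genes, Trpm7 and Scn3a, were close in level, within the spread of Scn3a between the controls.

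**Figure D4:**
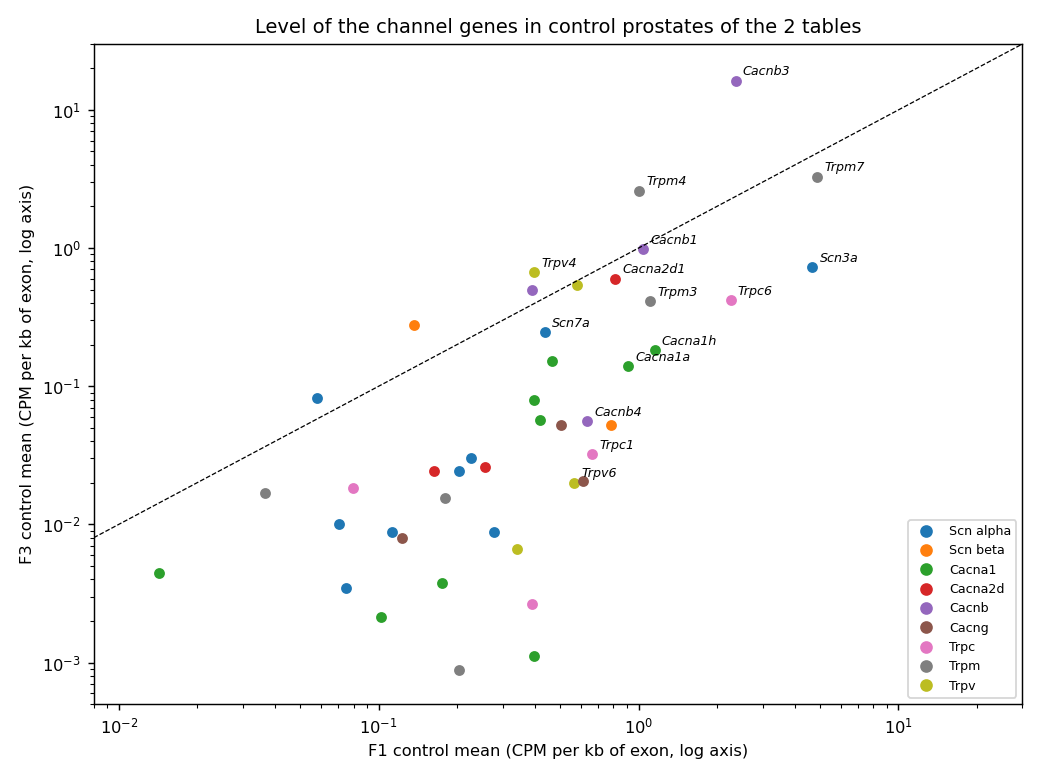
Mean level of the members reported here in F1 controls (horizontal axis) and F3 controls (vertical axis), in CPM per kb of exon on log axes, coloured by subfamily, with a dashed line of equal level; the tables were normalised separately. Cacnb3 lies above the line, and 13 of the 50 shared members met the count rule in F1 only; Scn4b, Cacna1s, Cacng5 and Cacng8 (a control mean of 0) and Trpm8 are not drawn.

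Other genes of the same pathways were read from a list of 58 (epithelial and leak sodium channels, channel partners, other TRP channels, store-operated entry, release channels, pumps and exchangers). In F1 edgeR tested 56 and called 0, with 6 higher and 3 lower at an unadjusted p under 0.05, and 23 (41.1%) did not overlap between groups, beside 31.3% of all genes. The 3 smallest p-values, all missing the threshold, were for Mcoln2, an endolysosomal TRP channel (186.6 ± 16.2 CPM, SD, n = 2, in controls and 101.0 ± 4.97 CPM, SD, n = 3, with chlordecone; edgeR adjusted p = 0.248), the sodium-calcium exchanger Slc8a1 (11.6 and 24.0 CPM; 0.267) and the skeletal muscle release channel Ryr1 (6.03 and 1.75 CPM; 0.279). DESeq2's Wald test called 2 of them, Mcoln2 and Ryr1. In F3 edgeR tested 45 and called 0, with 2 higher and 1 lower at an unadjusted p under 0.05. The smallest p-values were for the calcium pump Atp2a3 (3.71 and 5.94 CPM; edgeR adjusted p = 0.411), the epithelial sodium channel subunit Scnn1g (0.329 and 0.677 CPM; 0.456) and the store-operated channel Orai1 (24.9 and 18.9 CPM; 0.465). For the generation difference edgeR called 0 of 55, with 5 at an unadjusted p under 0.05, the smallest for Mcoln2 (edgeR adjusted p = 0.127).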

How the data were processed

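RNA-seq of mouse prostate was read from 2 deposited tables of raw counts per gene, 1 for F1 (19091 genes) and 1 for F3 (26023 genes). Per the submitters' processing notes the authors used the mouse build mm10 and, with no order stated, HTSeq 0.6.1, TopHat2 2.0.14, Bowtie2 2.1.0, DESeq2 1.6.3 and bcl2fastq 2.17.1.14; the labels' protocols name a stranded poly(A) library kit, and the counting strand is not given in the sources used here. The F1 table holds genes with 20 or more counts over its libraries and the F3 table those with 1 or more. Columns were matched to samples by letter and number: C for control and K for chlordecone (kepone).

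From the deposited counts, edgeR 4.0.16 (R 4.3.3) gave TMM factors, CPM, filterByExpr (minimum count 10, minimum total 15) and quasi-likelihood F tests, two-sided, with Benjamini-Hochberg adjustment over all genes tested. Each generation was fitted on its own, and the difference between generations in 1 fit of the shared genes. A group has 2 or 3 libraries, which limits precision. The script was tested on simulated data. Levels per kb used GENCODE M21 exon lengths (GRCm38).

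Members, gene lists and tests were chosen with earlier results of these data known. Members were named if called, if the unadjusted p was under 0.05 at a mean of 1 CPM or more, or if among the 2 highest of their subfamily per kb in either control group; some members are counted but not reported by name here, and others appear in counts or as examples chosen after their values were seen. Alternatives covered scaling, low-count filters, DESeq2 1.42.0, a replicate block, 1 fit of all libraries and leaving out each library.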

Additional observations from a re-analysis of the deposited data

Results flagged for a closer look

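The fold change of 2 members differed between F1 and F3 by the test of the difference itself. For Trpc6 the log2 fold change in F3 minus that in F1 was 4.65 (edgeR adjusted p = 0.00455). It was lower in 3 of 3 F1 chlordecone libraries than in both F1 controls and higher in 3 of 3 F3 chlordecone libraries than in all F3 controls. For Scn3a the difference was 3.52 (edgeR adjusted p = 0.0196), with no overlap in F1 and with overlap in F3. Tested within a generation by edgeR, Scn3a passed in F1 (adjusted p = 0.0284) and Trpc6 did not (0.127), and neither passed in F3 (0.569 and 0.345).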

How the results depend on the processing

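No direction of a called member reversed under any alternative run. F1 members called (1 of 47) became 2 with total counts, 4 with DESeq2, 5 in 1 fit of all libraries and 0 to 4 with 1 library left out. All F1 genes called (5) became 14 with upper-quartile factors, 42 with total counts, 21 with no filter, 719 with DESeq2, 930 in 1 fit and 0 to 2604 with 1 library left out; F1 partner genes (0) became 2 with DESeq2, 2 in 1 fit and 0 to 9. F3 members (0) became 2 with DESeq2 and stayed at 0 with any library left out, as did F3 partner genes. All F3 genes (10) became 38 with no filter, 249 with DESeq2, 2 in 1 fit and 7 to 41. For the generation difference, members (2) became 6 with DESeq2 and 1 to 6 with 1 library left out, all genes (122) became 188 at a mean of at least 1 CPM, 1151 with DESeq2 and 27 to 2320, and partner genes (0) became 2 with DESeq2 and 0 to 4. Without both F1 chlordecone 1 and 3, chosen after seeing the data, F1 gave 4 members of 51, 1226 of 18669 genes and 1 partner gene, with the spread taken from the 2 controls alone, and the difference gave 2 members (Trpc6 and Trpm7) and 370 genes, with Scn3a at an adjusted p of 0.0634. The members' F1 median of -0.01 was -0.65 without chlordecone 2. The cause of these shifts was not tested.

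Whether the labels' replicate numbers pair the libraries could not be settled from the counts. Deviations of same-numbered libraries correlated at 0.06 and 0.06 in F1 and at 0.19, -0.05 and -0.05 in F3. The deviations of the 2 F1 controls mirror each other, so those values cannot decide it. In F3, differently numbered pairs ran from -0.29 to 0.31, a range that holds the same-numbered values. With the replicate number as a block, F1 gave 4 members and 322 genes, and the difference gave 1 member (Trpc6) and 49 genes.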

Other observations

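The progesterone receptor gene Pgr, chosen after its values were seen, lies on chromosome 9 at 8899833 to 8968611, downstream of Trpc6. It was 8.49 and 10.1 CPM in F1 controls and 3.92, 4.85 and 2.62 CPM with chlordecone (log2 fold change -1.29, SE 0.44; edgeR adjusted p = 0.328). In F3 it was 2.62, 2.56 and 3.51 CPM in controls and 5.58, 5.16 and 3.27 CPM with chlordecone (0.69, SE 0.26; edgeR adjusted p = 0.45). In F1 the other genes tested within 500 kb of Trpc6 were not all on the same side. Cep126 was at -0.24, Arhgap42 at 0.51 and 1700128F08Rik at 0.32 on the log2 scale, with a median of 0.04 over the 4 neighbours. In F3 the other genes tested were all above 0, as Trpc6 was. Arhgap42 was at 0.42, Gm16485 at 0.72 and Cep126 at 0.06, with a median of 0.55 over the 4 neighbours. No neighbour was called by edgeR in either generation (1 of 4 in each at an unadjusted p under 0.05).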
